A study of Mus musculus with 6 samples.

Results

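Plasmacytoid dendritic cells (pDC) were examined in liver cells of 3 wild-type (WT) and 3 SIRT7 KO mice, profiled by droplet-based single-cell RNA sequencing from the 3' end of the transcript. A cell was taken as a pDC when it held at least 1 unique molecular identifier (UMI, the tag that marks a captured transcript) of Siglech and at least 1 of Ccr9, Klk1, Cox6a2 or Bcl11a, had none of Clec4f, Vsig4 or Cd3e, and did not carry Derl3 and Eaf2 together. This rule kept 186 of 11610 cells. The members were chosen by these measured values, so the values of the rule's genes are no finding. They came as 7, 5 and 16 cells from WT mice 1 to 3 and as 100, 55 and 3 cells from SIRT7 KO mice 1 to 3. SIRT7 is a histone deacetylase of the sirtuin family. Mice of both genotypes were 5 to 6 months old, and the labels name no treatment. Each liver was dissociated by collagenase perfusion, and 3000 hepatocytes and 3000 nonparenchymal cells were mixed to make 1 library per mouse, so that the share of any immune cell carries this mixing. Sex and strain were not used here.

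pDC are rare dendritic cells of lymphoid appearance that sense viral and self nucleic acids in endosomes through TLR7 and TLR9 and can release large amounts of type I interferon. The E protein TCF4 (E2-2) sets up and maintains their identity together with the cofactor BCL11A, the Ets factor SPIB, RUNX2 and IRF8, while the inhibitor of E proteins ID2 is used by conventional dendritic cells. In the liver, pDC reside in the sinusoids beside Kupffer cells, conventional dendritic cells and lymphocytes.

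The genes of the rule code for proteins of quite different kinds: SIGLECH is a sialic acid-binding receptor of pDC, CCR9 a chemokine receptor for CCL25, KLK1 a tissue kallikrein, COX6A2 a subunit of cytochrome c oxidase and BCL11A a zinc finger transcription factor. RefSeq promoters (build GRCm38.p6) were found for 4 of these 5 genes. The 250 bases before the transcription start are shown here because these genes define the cells and E proteins such as TCF4 bind E-boxes. All 4 lie on the plus strand. Capitals mark the E-box CAGGTG, read on either strand (CACCTG on the other).
Siglech, chr7:55767934-55768183: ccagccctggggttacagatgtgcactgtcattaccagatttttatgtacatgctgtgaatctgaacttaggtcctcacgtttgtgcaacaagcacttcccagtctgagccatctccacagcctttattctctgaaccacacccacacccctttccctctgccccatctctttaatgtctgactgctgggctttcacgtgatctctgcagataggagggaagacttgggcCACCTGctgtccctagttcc
Ccr9, chr9:123766961-123767210: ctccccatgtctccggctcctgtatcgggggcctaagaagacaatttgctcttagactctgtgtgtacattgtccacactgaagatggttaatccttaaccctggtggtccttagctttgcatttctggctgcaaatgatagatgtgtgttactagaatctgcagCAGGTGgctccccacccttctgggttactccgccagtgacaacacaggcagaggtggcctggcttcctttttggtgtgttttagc
Klk1, chr7:44225110-44225359: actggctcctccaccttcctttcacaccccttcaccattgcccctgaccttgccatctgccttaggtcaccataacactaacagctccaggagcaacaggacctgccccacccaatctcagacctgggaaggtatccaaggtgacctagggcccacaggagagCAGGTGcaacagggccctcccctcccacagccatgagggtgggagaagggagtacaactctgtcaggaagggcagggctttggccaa
Bcl11a, chr11:24080445-24080694: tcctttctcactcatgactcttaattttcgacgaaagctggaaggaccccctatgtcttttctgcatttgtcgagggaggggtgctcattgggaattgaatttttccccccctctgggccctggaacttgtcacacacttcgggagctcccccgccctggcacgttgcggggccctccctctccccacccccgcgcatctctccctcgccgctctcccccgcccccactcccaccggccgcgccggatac
Siglech held this E-box at position -20 from the transcription start, Ccr9 at -85 and Klk1 at -87. No CAGGTG was found in the Bcl11a window, and CAGCTG, the other E-box searched, was in none of the 4. Of all 32851 promoters of 300 bases (250 before and 50 after the start), 20.2% held CAGGTG and 16.3% CAGCTG on either strand. Of 137 promoters of genes higher in pDC in all 3 comparisons with other classes, 21.9% held CAGGTG and 13.1% CAGCTG, beside the 20.2% and 16.3% of all promoters. The matches are a description of these windows and were not tested.

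Siglech averaged 16.0, 14.5 and 13.5 counts per 10000 UMIs of a cell (CP10K) over the pDC of WT mice 1 to 3, and 15.7, 12.7 and 8.20 in SIRT7 KO mice 1 to 3. Klk1 stood at 21.0, 15.6 and 12.04 CP10K in the WT mice and at 11.9, 13.3 and 15.6 in the SIRT7 KO mice. Cox6a2 was at 13.9, 20.9 and 10.2 CP10K against 16.4, 9.90 and 11.3. All 3 genes overlapped between the genotypes. Bcl11a was at 7.81, 16.5 and 8.80 CP10K in WT and 9.90, 8.02 and 9.03 in SIRT7 KO. Ccr9 was at 2.12, 10.9 and 4.24 CP10K against 4.67, 5.57 and 3.26. Ccr9 and Bcl11a also overlapped between the genotypes, and Siglech was lowest in SIRT7 KO mouse 3, which rests on 3 cells. Of the 186 pDC, 49 carried all of Ccr9, Klk1, Cox6a2 and Bcl11a, 67 carried 3 of them, 46 carried 2 and 24 carried 1.

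The label was checked with pDC markers that the rule did not use. Irf8, the transcription factor shared with type 1 conventional dendritic cells, was detected in 93.5% of the pDC and in 24.5% of all other cells. Tcf4 was detected in 91.4% of pDC against 18.9% of the other cells, Bst2 (the pDC antigen PDCA-1) in 97.8% against 46.2%, and Ly6d, a surface gene of lymphoid progenitors, in 83.3% against 8.60%. Runx2 was found in 65.6% against 3.92%, Spib in 41.4% against 1.18% and the endocytosis adaptor Pacsin1 in 22.6% against 0.683%. The median depth was 1756 UMIs in pDC and 1892 in all other cells. The endosomal receptor genes were sparse at this depth, with Tlr7 in 12.4% of pDC and 6.07% of the other cells and Tlr9 in 1.08% against 0.0788%. Genes of other classes were also found in pDC, with Cd79a in 5.38%, Xcr1 in 2.69% and the hepatocyte gene Alb in 74.2% of pDC, against 5.87%, 3.13% and 83.9% of the other cells. Cd209a was found in 26.9% of pDC and in 3.89% of the other cells. Clec9a, like Xcr1 a gene of type 1 conventional dendritic cells, went the other way from Xcr1, with 15.05% of pDC against 4.98%.

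The edge of the rule was examined once, with no test. The 14 pDC with a lone Siglech UMI and a lone gene of the other 4 had Tcf4 in 85.7%, Irf8 in 78.6% and Bst2 in 92.9% of cells, but Ly6d in 42.9% and no Spib. Just outside, 12 cells with Siglech but none of the 4 genes, and none of the excluded genes, had Tcf4 in 50%, Irf8 in 75% and Bst2 in 50%. Another 52 cells had no Siglech but at least 2 of the 4 genes, and Tcf4 was found in 80.8%, Irf8 in 84.6% and Bst2 in 82.7% of them.

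The 6 libraries held 552 to 5609 cells and 2511947 to 11069411 UMIs. Over the pDC alone, the median depth was 4188, 4038 and 2717 UMIs in WT mice 1 to 3 and 1294.5, 2310 and 7112 in SIRT7 KO mice 1 to 3. The pDC of SIRT7 KO mouse 1 were thus the shallowest, and that mouse gave 53.8% of all members. The mean of these medians differed by -75.5 UMIs between the genotypes (SIRT7 KO minus WT; two-sided exact permutation test, p = 1, smallest possible p 0.1, n = 3 mice each), and it changed sign when a library was left out. Of all cells, 26 had a barcode that also occurred in another library, and 1 of these cells was a pDC. Sirt7 RNA averaged 0.512 to 0.718 CP10K over all cells of the WT mice and 0.0814 to 0.139 over those of the SIRT7 KO mice. In the pDC themselves, 0, 1 and 3 Sirt7 UMIs were counted in WT mice 1 to 3 and none in the SIRT7 KO mice, which is too few to check the knockout in this cell type. The limit that a count of 0 allows (3 UMIs) was 0.174 CP10K in SIRT7 KO mouse 1, 0.177 in mouse 2 and 1.45 in mouse 3.

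pDC made up 0.563%, 0.536% and 1.46% of all cells in WT mice 1 to 3 and 1.78%, 2.52% and 0.543% in SIRT7 KO mice 1 to 3. The shares of 2 SIRT7 KO mice lay above every WT mouse, and the share of SIRT7 KO mouse 3 lay between those of WT mice 1 and 2. The mean was 0.854% ± 0.527 (SD, n = 3) in WT and 1.62% ± 1.001 (SD, n = 3) in SIRT7 KO, a difference of 0.763 percentage points that was within the spread between mice (two-sided exact permutation test, p = 0.3, n = 3 mice each; this design cannot go below 0.1). Among leukocytes, taken as cells with a UMI of the CD45 gene Ptprc, the share was 1.89%, 1.98% and 1.95% in WT and 2.11%, 2.74% and 1.80% in SIRT7 KO. The WT mice were close to each other on this scale, and the difference narrowed to 0.273 percentage points (two-sided exact permutation test, p = 0.5, n = 3 mice each). Only pDC with a Ptprc UMI entered this share. They were 6, 5 and 13 of the 7, 5 and 16 pDC in WT, and 59, 42 and 3 of the 100, 55 and 3 in SIRT7 KO. The part of this loss in the narrowing was not tested. Without the conditions on Clec4f, Vsig4 and Cd3e, which left out 37.5% and 34.9% of the candidates in SIRT7 KO mice 1 and 2, 30.4% in WT mouse 3 and none in the other mice, the shares among leukocytes were 1.89%, 1.98% and 2.70% in WT and 3.68%, 4.50% and 1.80% in SIRT7 KO. That difference was 1.13 percentage points (two-sided exact permutation test, p = 0.4, n = 3 mice each), and among all cells it was 1.37 (exact p = 0.3). With the conditions kept, the difference among leukocytes turned to -0.0987 when at least 2 Siglech UMIs were asked of a member. With every cell thinned to 1000 UMIs and shallower cells left out, the shares among leukocytes were 1.06%, 0.613% and 0.867% in WT and 1.76%, 1.82% and 1.23% in SIRT7 KO, from 2, 1 and 3 pDC against 28, 18 and 1. That difference was 0.757 percentage points (two-sided exact permutation test, p = 0.1, the smallest the design allows, n = 3 mice each).

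**Figure D1:**
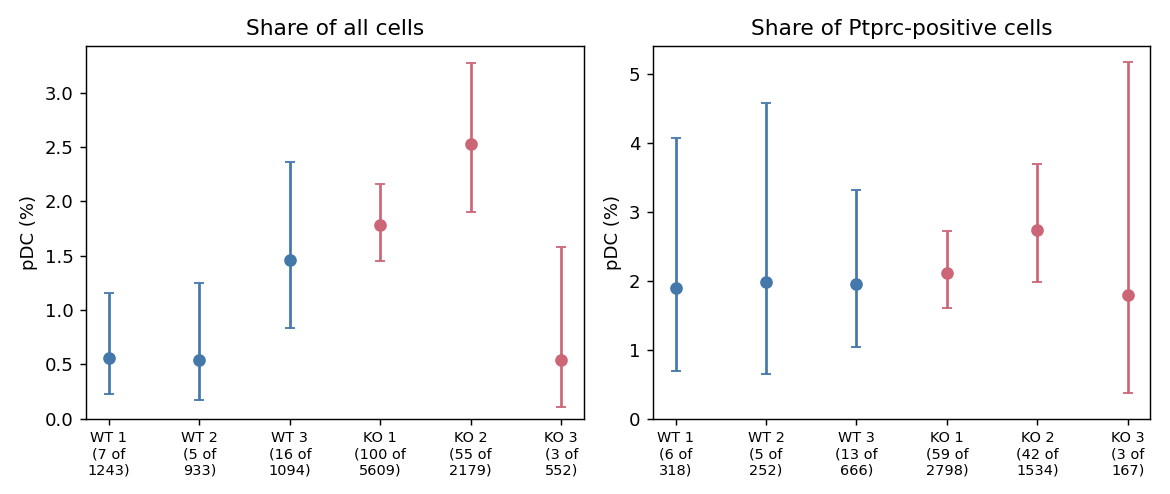
pDC as percent of all cells (left) and of cells with a Ptprc UMI (right) in each mouse, with the number of pDC and of cells under each name. Points are the observed shares and bars exact 95% binomial intervals for counting error only; among all cells SIRT7 KO mice 1 and 2 lie above the WT mice and SIRT7 KO mouse 3 does not, while among Ptprc cells the 6 shares run from 1.80% to 2.74%.

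RNA of Kupffer cells was found in part of the candidates. Of 284 cells with Siglech and at least 1 of the 4 genes, 80 carried Clec4f or Vsig4, which are receptors of Kupffer cells, and 17 more carried Cd3e; all 97 were left out. Of the 80, 4 came from the 23 candidates of WT mouse 3, 53 from the 160 of SIRT7 KO mouse 1 and 23 from the 86 of SIRT7 KO mouse 2, while none were among the 7, 5 and 3 candidates of the other mice. Those 3 mice had too few candidates to set a limit below 42.9%. The 80 cells had a median depth of 3284 UMIs against 1756 in the pDC that were kept. Over 6 further Kupffer cell genes (C1qa, C1qb, C1qc, Cd5l, Timd4 and Marco) their median summed level was 106.6 CP10K, against 189.5 in cells with Clec4f and Vsig4 but no Siglech and 0 in the pDC kept. Over 6 pDC genes outside the rule (Tcf4, Irf8, Ly6d, Runx2, Spib and Bst2) it was 43.6 CP10K, against 8.40 in those Kupffer cells and 89.2 in the pDC kept. Clec4f or Vsig4 was also found in 45.8% of the type 1 conventional dendritic cells, in 22.8% of the Cd209a cells and in 16.5% of the B cells defined in the next paragraph before the same exclusion, and in 28.2% of the pDC candidates. Over all cells, the share with Clec4f or Vsig4 was 5.79%, 6.32% and 23.0% in WT mice 1 to 3 and 48.9%, 27.1% and 15.8% in SIRT7 KO mice 1 to 3. Whether free RNA or cells captured together gave these values was not tested.

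**Figure D2:**
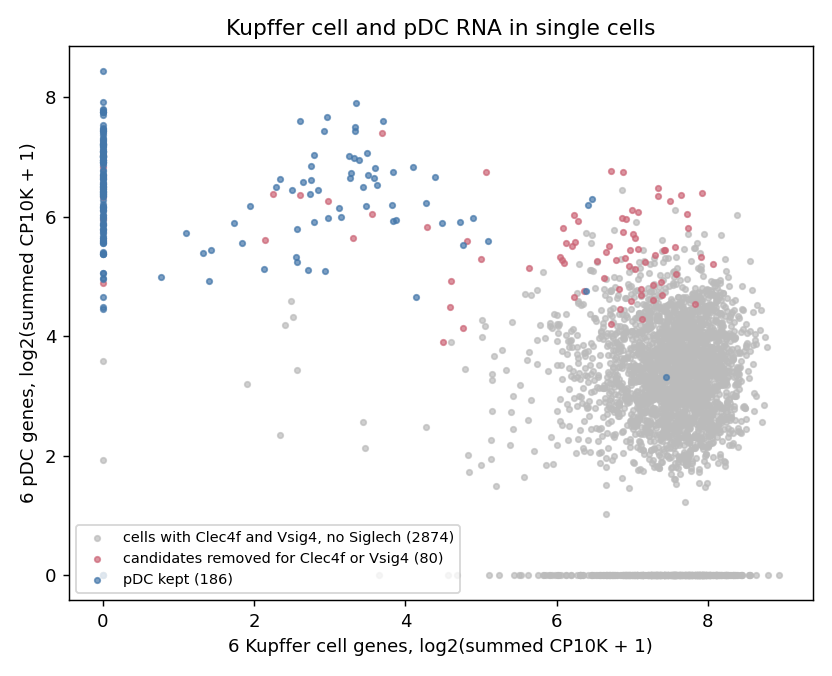
Summed level of 6 Kupffer cell genes (horizontal) and of 6 pDC genes outside the rule (vertical), each as log2(CP10K + 1), in every kept pDC (blue, 186), every candidate removed for Clec4f or Vsig4 (red, 80) and every cell with Clec4f and Vsig4 but no Siglech (grey, 2874). The removed candidates hold both sets, with median sums of 106.6 and 43.6 CP10K, and most kept pDC have none of the Kupffer cell genes.

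To show where pDC differed from the cells most like them, they were compared within the same mice with 3 other classes, each required to lack Siglech, Clec4f, Vsig4 and Cd3e. Type 1 conventional dendritic cells (cDC1), which cross-present antigen, had Xcr1 or Clec9a (339 cells). Cd209a cells had Cd209a without those genes, as type 2 conventional and monocyte-related dendritic cells do (262 cells). B cells had Cd79a and at least 1 further B cell gene, such as Ms4a1 or Ebf1, without Derl3 and Eaf2 together (221 cells). WT mouse 3 and SIRT7 KO mice 1 and 2 held at least 10 cells of each class and entered the fits (limma on log2 of the mean CP10K plus 0.2, mouse as a block, Benjamini-Hochberg adjusted p under 0.05, n = 3 mice). Fold changes are on this log2 scale, which understates those of low genes. Genes of the class rules were not tested. pDC were chosen by their own RNA, so the tests bear on the other genes of these cells and not on whether the cells exist.

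Against cDC1, 711 of 6141 genes passed (11.6%), 437 higher in pDC (7.12%) and 274 lower (4.46%). Against Cd209a cells 374 of 6175 passed (6.06%), with 207 higher (3.35%) and 167 lower (2.7%). Against B cells 471 of 5968 passed (7.89%), with 403 higher (6.75%) and 68 lower (1.14%). The counts depended on depth and on single libraries: with each cell thinned to 1000 UMIs they were 326, 247 and 190, and without a trend or robust term in the spread they were 416, 104 and 262. Without SIRT7 KO mouse 1 the count against cDC1 was 365, and without SIRT7 KO mouse 2 the counts were 408, 246 and 207. Of the calls, 311, 215 and 174 were shared with the thinned fits and none had the opposite direction. Of 5427 genes tested in all 3 comparisons, 129 were higher in pDC in all 3. Crip1, a LIM domain protein, and H2-Ob, which restrains peptide loading of MHC class II, were the 2 genes lower in all 3.

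Among the regulators of pDC identity, Tcf4, Runx2, Spib, Irf8 and Tcf12 were higher in pDC in all 3 comparisons, and other members were not. Tcf4 averaged 16.5, 15.8 and 16.7 CP10K in the pDC of WT mouse 3 and SIRT7 KO mice 1 and 2. In the same mice it was at 0.606, 1.86 and 1.48 CP10K in cDC1, at 2.56, 2.72 and 1.05 in Cd209a cells and at 1.92, 1.12 and 2.11 in B cells. No pDC value came near those of another class, and the log2 fold changes were 3.55 ± 0.20, 2.94 ± 0.22 and 3.15 ± 0.26 (SE) against cDC1, Cd209a cells and B cells. Outside these fits, the pDC of WT mice 1 and 2 and SIRT7 KO mouse 3 had 13.4, 27.4 and 18.1 CP10K of Tcf4.

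Irf8 was high in pDC at 22.2, 19.6 and 16.9 CP10K, and it was also high in cDC1 at 17.0, 13.5 and 12.1. pDC thus exceeded cDC1 by only 0.46 ± 0.14 (SE) on the log2 scale (adjusted p = 0.0141), each mouse being higher in pDC although the ranges overlapped. In Cd209a cells Irf8 was at 2.62, 2.61 and 1.96 CP10K and in B cells at 1.99, 1.49 and 2.18, with log2 fold changes of 2.93 ± 0.15 and 3.25 ± 0.25 (SE). Runx2, which guides the exit of pDC from bone marrow, was at 6.87, 5.99 and 7.85 CP10K in pDC and at most 0.884 in every other class and mouse of the fits, with log2 fold changes of 4.10 ± 0.29, 2.92 ± 0.23 and 4.33 ± 0.36 (SE). Spib was at 5.49, 3.26 and 4.19 CP10K in pDC. B cells, in which SPIB also acts, were next at 0.453, 1.15 and 1.18, and cDC1 had 0.0502 to 0.0969. The log2 fold changes of Spib were 4.04 ± 0.33, 3.56 ± 0.31 and 2.05 ± 0.33 (SE).

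Over the whole list of pDC regulators, 9 of 15 tested genes were higher against cDC1 and none lower, 6 of 15 were higher and 2 lower against Cd209a cells, and 9 of 16 were higher and 1 lower against B cells. The list medians were 1.10, 1.12 and 1.32, beside 0.125, 0.093 and 0.291 over all genes tested. Tcf12, another E protein, was higher in all 3 comparisons, by 2.23 ± 0.32, 1.81 ± 0.30 and 1.75 ± 0.37 (SE). Mef2c was higher against cDC1 (1.72 ± 0.25) and Cd209a cells (1.12 ± 0.21), while against B cells, which also use MEF2C, the value was 0.02 ± 0.27 (SE; adjusted p = 0.981). Zeb2, a repressor that counters ID2, was higher against cDC1 (1.31 ± 0.25) and B cells (1.98 ± 0.33) but was at 0.23 ± 0.22 (SE) against Cd209a cells and did not pass. Pou2f2, which codes for OCT2 of B cells, was lower than in Cd209a cells (-1.39 ± 0.27) and B cells (-1.08 ± 0.36, SE), and the corepressor gene Cbfa2t3 was lower than in Cd209a cells (-0.95 ± 0.23) and higher than in B cells (1.35 ± 0.39, SE).

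The surface and secreted genes of pDC were the list with the broadest difference. Of 31 tested, 29 were higher against cDC1, 27 against Cd209a cells and 26 against B cells, with none lower, and the medians were 2.49, 2.20 and 2.43. The list was drawn up from genes known for pDC, with earlier results of these data known, so its direction is a description. Bst2, which tethers budding virus and marks pDC, was at 17.8, 31.5 and 29.7 CP10K in the pDC of WT mouse 3 and SIRT7 KO mice 1 and 2 and at 1.01 to 5.43 in the other classes, a log2 fold change of 3.22 ± 0.17, 2.63 ± 0.14 and 2.99 ± 0.22 (SE). Ly6d was at 13.4, 26.0 and 14.4 CP10K in pDC and at 0.0606, 0.109 and 0.583 in cDC1, which gave 5.45 ± 0.26 (SE). B cells shared Ly6d at 5.66, 9.88 and 6.62 CP10K, so that the difference from them was 1.23 ± 0.20 (SE). Ly6c2 was at 7.87, 8.34 and 12.9 CP10K in pDC and differed by 3.91 ± 0.26, 2.62 ± 0.25 and 2.89 ± 0.30 (SE).

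The inhibitory collagen receptor Lair1 was at 4.57, 4.79 and 6.47 CP10K in pDC and at most 0.696 in the other classes of these mice, with log2 fold changes of 3.05 ± 0.28, 2.80 ± 0.26 and 4.25 ± 0.39 (SE). Lag3, which binds MHC class II, was low but concentrated in pDC at 1.36, 0.730 and 1.56 CP10K, against at most 0.0839 elsewhere. The lysosomal protease gene Ctsl was at 5.77, 10.1 and 9.38 CP10K and differed by 3.44 ± 0.26, 3.63 ± 0.25 and 3.79 ± 0.33 (SE). The sodium pump subunit Atp1b1 was at 2.83, 4.39 and 3.76 CP10K, with 3.57 ± 0.33, 3.71 ± 0.32 and 2.98 ± 0.38 (SE). The C-type lectin Cd209d was at 6.52, 4.14 and 2.33 CP10K and was higher by 4.09 ± 0.34 against cDC1 and 4.29 ± 0.42 against B cells, but by 1.81 ± 0.26 (SE) against Cd209a cells. Another lectin of the list, Clec10a, was not separated from Cd209a cells, in which it was at 3.38, 0.899 and 1.82 CP10K against 1.63, 0.858 and 1.37 in pDC. Klk1b27, a near copy of the rule gene Klk1, also ranked among the genes with the largest differences, at 3.56 ± 0.35, 3.50 ± 0.35 and 3.94 ± 0.44 (SE), and how reads were divided between the kallikrein copies is uncertain.

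Outside this list, the interleukin 7 receptor gene Il7r was at 5.78, 3.60 and 4.37 CP10K in pDC and at 0 to 0.736 in the other classes (log2 fold changes 3.28 ± 0.30, 3.66 ± 0.37 and 3.20 ± 0.36, SE). P2ry14, a receptor for UDP-sugars, was at 3.54, 2.40 and 2.69 CP10K and differed by 1.31 ± 0.28, 3.35 ± 0.42 and 3.83 ± 0.44 (SE). The cyclin gene Ccnd1 was at 5.52, 6.22 and 5.72 CP10K in pDC and at 0.170 to 0.374 in B cells, a difference of 3.79 ± 0.36 (SE). Ccnd1 also passed as higher against cDC1 (log2 fold change 1.54) and Cd209a cells (0.94). The listed cell cycle genes did not share this direction as a group against the dendritic cells, and none passed against B cells.

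**Figure D3:**
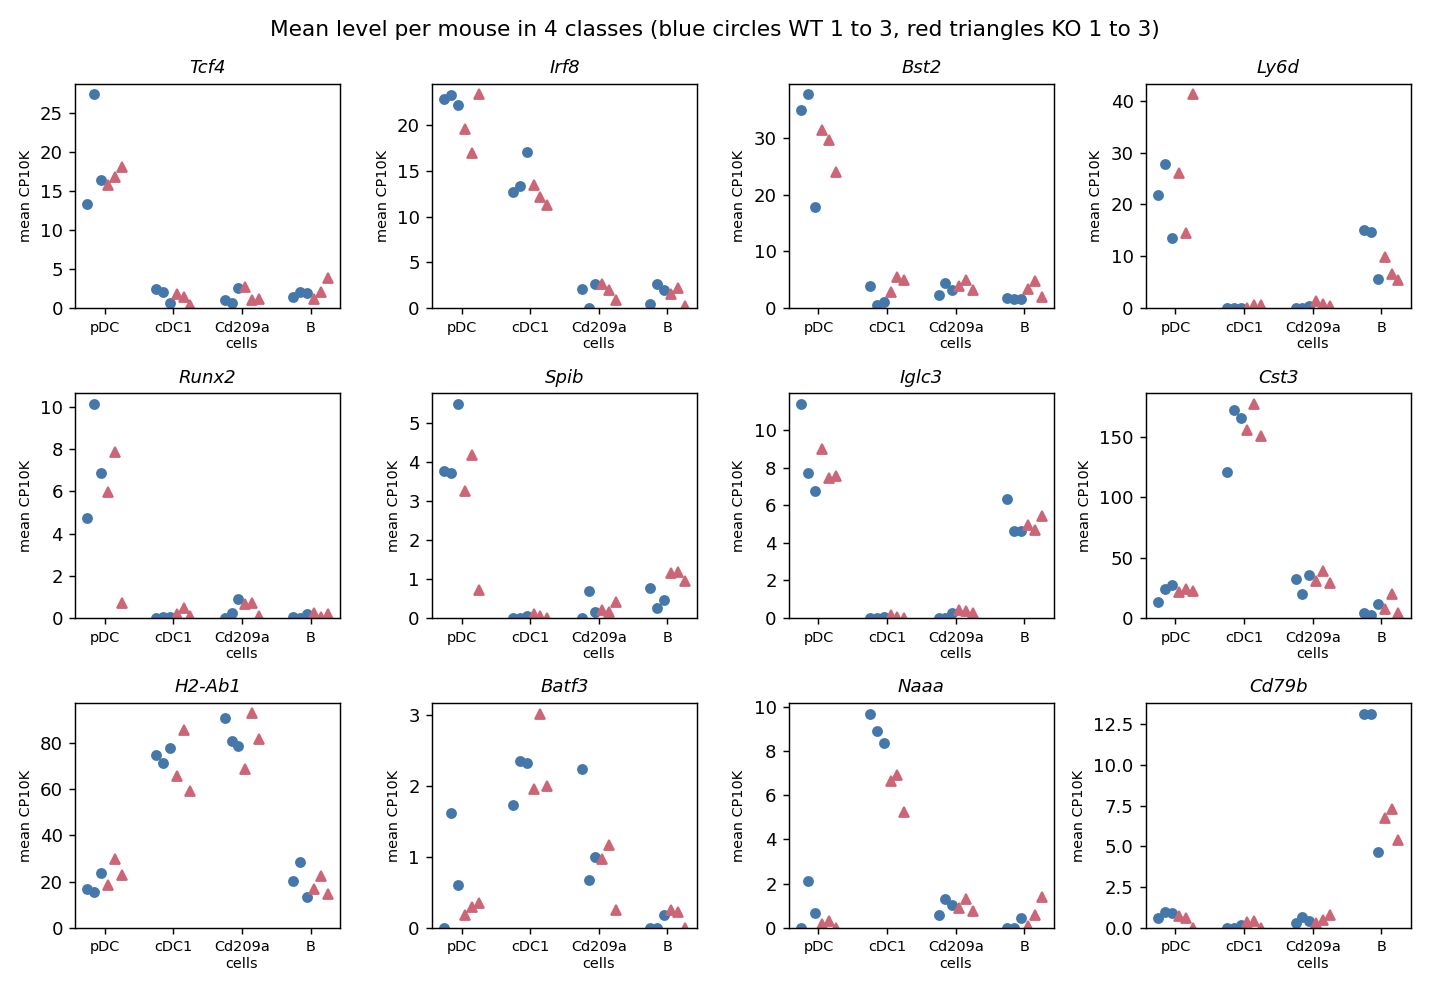
Mean CP10K per mouse (vertical, linear) of 12 genes in pDC, cDC1, Cd209a cells and B cells, WT mice 1 to 3 as blue circles and SIRT7 KO mice 1 to 3 as red triangles; no error bars are drawn, and SIRT7 KO mouse 3 rests on 3 pDC. Tcf4, Bst2, Runx2 and Spib stand apart in pDC in the mice of the fits, Irf8 is shared with cDC1, Iglc3 and Ly6d are shared with B cells, and Cst3, Naaa, Batf3 and H2-Ab1 are higher in cDC1.

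Nucleic acid sensing genes did not move as a group. Of 15 tested against cDC1, 3 were higher and 2 lower, and the list median of 0.026 lay below the 0.125 of all genes. Against Cd209a cells 2 of 13 were higher and none lower (median 0.391), and against B cells 2 of 14 were higher and none lower (median 0.834). Pld4, an endolysosomal exonuclease that degrades ligands of TLR9, was the member higher in all 3, at 7.61, 4.82 and 7.28 CP10K and with 1.35 ± 0.22, 1.01 ± 0.19 and 3.20 ± 0.33 (SE). Slc15a4, a lysosomal transporter needed for TLR7 and TLR9 signaling, was higher against cDC1 (1.51 ± 0.36, SE). Unc93b1, the chaperone that carries these receptors to endosomes, was at 4.43, 2.41 and 5.01 CP10K in pDC and did not differ detectably from cDC1 (0.00 ± 0.22, SE) but was higher against B cells (1.21 ± 0.32, SE). Tlr3, the receptor for double-stranded RNA used by cDC1, was at 0, 0.0734 and 0.113 CP10K in pDC against 3.27, 1.91 and 2.94 in cDC1, lower by a log2 value of -3.46 ± 0.35 (SE). Tlr7 was at 0, 0.466 and 1.005 CP10K in pDC and did not pass against any class.

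Of 19 listed genes of type I interferons and their receptor and signaling, 7 were in the table. None of the 7 passed against cDC1 (median 0.329) or Cd209a cells (median 0.238) at this depth, and the receptor chain Ifnar1 and the signal transducer Stat2 were higher against B cells, by 1.53 ± 0.45 and 1.36 ± 0.46 (SE; list median 0.75). Irf7, the main inducer of interferon genes in pDC and counted with the sensing list, was at 0.651, 0.519 and 6.02 CP10K in the pDC of these mice, higher in SIRT7 KO mouse 2 than in the others, and did not pass against any class. Among interferon-stimulated genes, 4 of 28 were higher and 2 lower against cDC1 (median 0.142), 1 of 36 higher and 2 lower against Cd209a cells (median -0.386), and 2 of 28 higher against B cells (median 0.417). Trim30a was the member higher in all 3, by 0.76 ± 0.24, 1.13 ± 0.23 and 2.07 ± 0.34 (SE). Ifitm3 was lower in pDC than in Cd209a cells by a log2 value of -2.36 ± 0.15 and lower than in cDC1 by -0.78 ± 0.17 (SE).

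Antigen presentation by MHC class II was the clearest group lower in pDC than in conventional dendritic cells. Of 11 tested, 8 were lower against cDC1 and 10 against Cd209a cells, with none higher, and the medians were -1.39 and -1.47. H2-Ab1 was at 23.9, 18.4 and 29.6 CP10K in pDC, at 77.8, 65.7 and 85.5 in cDC1 and at 79.0, 68.6 and 93.3 in Cd209a cells, with log2 fold changes of -1.68 ± 0.11 and -1.75 ± 0.08 (SE). The invariant chain gene Cd74 was lower by -1.20 ± 0.08 and -1.50 ± 0.06 (SE), and Ciita, the transactivator of these genes, by -1.89 ± 0.27 and -1.95 ± 0.25 (SE). Against B cells the picture was different: 4 of 11 were higher and 2 lower (median 0.339), and H2-Ab1 was at 13.4, 17.0 and 22.6 CP10K in B cells, a difference of 0.44 ± 0.17 (SE) that did not pass (adjusted p = 0.0877). MHC class I genes were less moved, with 1 of 12 higher and 1 lower against cDC1 (median 0.085), 2 higher against Cd209a cells (median 0.381) and 3 higher against B cells (median 0.77). H2-K1 was higher against cDC1 and Cd209a cells by 0.58 ± 0.14 and 0.55 ± 0.11 (SE).

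pDC also shared genes with the B lineage. Of the B lineage signaling genes, 5 of 15 were higher against cDC1 and 5 of 15 against Cd209a cells, with none lower (medians 0.743 and 0.333), whereas against B cells 2 were higher and 2 lower (median 0.412). The adaptor gene Blnk was at 0.953, 1.05 and 1.11 CP10K in pDC and higher by 2.14 ± 0.38 and 2.20 ± 0.39 than in cDC1 and Cd209a cells, and the difference of 1.06 ± 0.43 (SE) from B cells did not pass (adjusted p = 0.117). Tyrobp (DAP12), the signaling partner of SIGLECH, was at 27.2, 40.2 and 37.3 CP10K and was higher in all 3, by 1.62 ± 0.13, 0.52 ± 0.10 and 3.34 ± 0.21 (SE). Cd79b and Bank1, parts of B cell receptor signaling, were lower than in B cells by -2.75 ± 0.33 and -2.05 ± 0.43 (SE). Dntt, the terminal transferase of lymphoid progenitors, counted with the surface and secreted list, was at 2.30, 0.690 and 0.839 CP10K in pDC and higher in all 3 comparisons.

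The immunoglobulin lambda constant gene Iglc3 was at 6.77, 8.99 and 7.47 CP10K in these pDC and at 11.4, 7.68 and 7.53 in the pDC of WT mice 1 and 2 and SIRT7 KO mouse 3. It was at 0.0252 to 0.157 CP10K in cDC1 and at 4.61, 4.92 and 4.70 in B cells, so that pDC were higher than cDC1 by 4.89 ± 0.30 (SE). Every pDC value of these 3 mice also lay above the B cell values, and that difference of 0.68 ± 0.25 (SE) did not pass (adjusted p = 0.0726). Iglc2, a neighboring and similar gene, went the other way, at 4.32, 1.62 and 1.02 CP10K in pDC and lower than in B cells by -3.49 ± 0.24 (SE), and reads of the lambda genes may be divided uncertainly. Ighm was spread over 118 of the 186 pDC, with 12.4% of its UMIs in the 5 highest cells, and was higher than in cDC1 by 2.04 ± 0.24 (SE). Jchain, Igha and Igkc had 97.9%, 99.1% and 97.1% of their UMIs in 5 cells each, and all 1183 UMIs of Ighg2b lay in 5 cells, so that their mouse means describe a few cells. Over the list of B and plasma cell RNA, 8 of 14 genes were higher against cDC1, 6 of 14 higher against Cd209a cells and 7 of 13 lower against B cells (medians 1.86, 1.66 and -2.26), and its summed level in pDC ran from 41.4 to 750.5 CP10K over the WT mice and from 18.4 to 215.1 over the SIRT7 KO mice.

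Genes of migration split by class. The list had 2 of 13 higher and 1 lower against cDC1 (median 0.298), 2 of 12 higher against Cd209a cells (median 0.041) and 5 of 14 higher against B cells (median 0.595). Ccr2, the receptor for CCL2, was shared with the dendritic cells and higher against B cells alone among the comparisons run (2.64 ± 0.33, SE). The integrin gene Itgae (CD103), carried by cDC1, was at 0 to 0.0275 CP10K in pDC and lower by -1.60 ± 0.48 (SE).

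Genes of the cell cycle list were mostly lower in pDC than in the dendritic cells. Ccnd1, which is not in that list, was higher against both. Of 19 tested, 9 were lower against cDC1 and 5 of 17 against Cd209a cells, with none higher (medians -1.04 and -1.08), and none of 10 passed against B cells (median 0.399). The chromatin protein gene Hmgb2 was at 6.00, 3.38 and 2.62 CP10K in pDC against 9.69, 9.32 and 9.70 in cDC1 (-1.30 ± 0.19, SE), and the survivin gene Birc5 was lower by -1.54 ± 0.36 (SE). The topoisomerase gene Top2a was at 1.54, 0.173 and 0.194 CP10K in pDC against 1.33, 0.969 and 1.34 in cDC1, so that WT mouse 3 did not share the difference of -1.14 ± 0.34 (SE). Of transcription factors of the other dendritic cells, 3 of 8 were lower against cDC1 (median -1.13), 1 of 8 against Cd209a cells (median -1.01) and 1 of 5 against B cells (median 0.294), with none higher. Id2 was at 3.72, 3.25 and 2.83 CP10K in pDC against 19.2, 15.1 and 16.0 in cDC1 (-2.29 ± 0.18, SE), Batf3 was lower than in cDC1 by -2.30 ± 0.32, and Klf4 was lower than in Cd209a cells by -2.55 ± 0.40 (SE). Cst3, the cystatin C gene abundant in cDC1, was at 27.4, 21.2 and 24.2 CP10K in pDC against 165.7, 155.5 and 177.0 (-2.77 ± 0.10, SE), and Naaa and Ppt1, lysosomal hydrolase genes, were lower by -3.77 ± 0.28 and -3.08 ± 0.24 (SE). S100a4 was at 0.572, 0.793 and 1.605 CP10K in pDC against 9.72, 10.6 and 12.9 in Cd209a cells, which gave -3.33 ± 0.22 (SE).

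**Figure D4:**
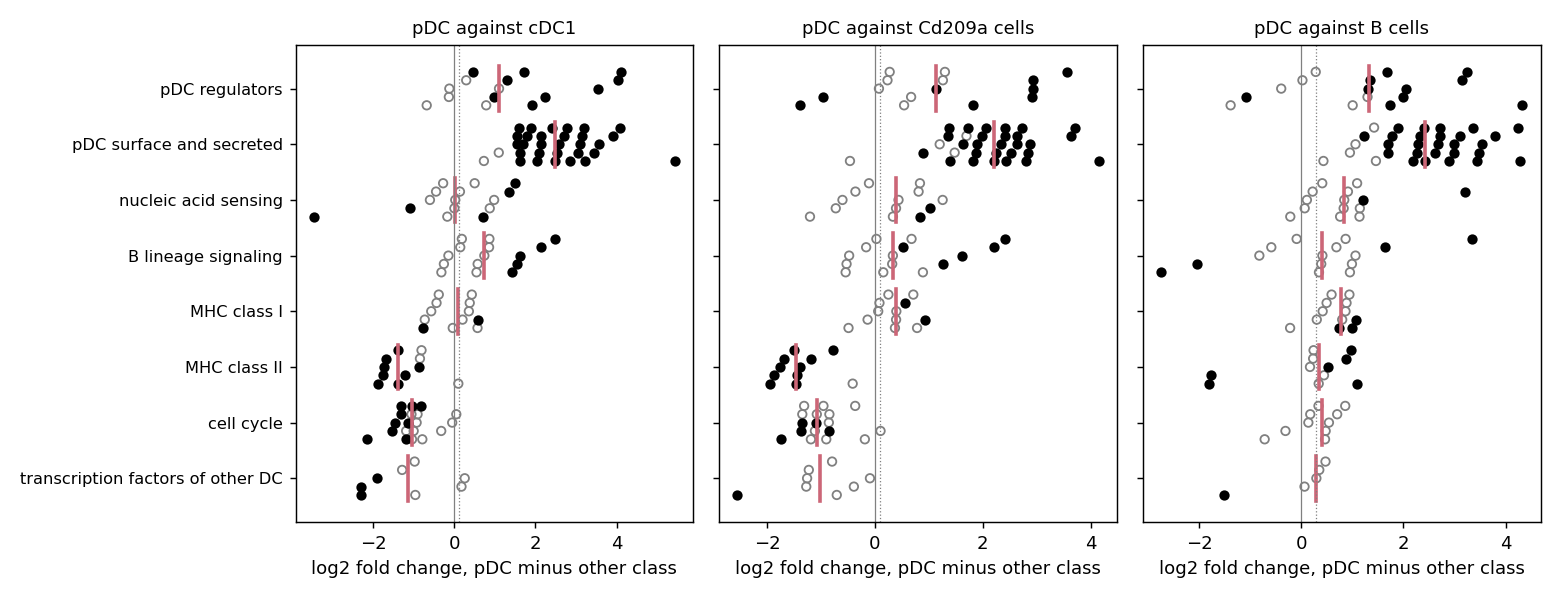
log2 fold change of each tested gene (horizontal, pDC minus the other class) for 8 gene lists against cDC1, Cd209a cells and B cells; filled points passed an adjusted p of 0.05, open points did not, red bars are list medians and the dotted line the median of all genes. Surface genes lie to the right in all 3 panels, MHC class II and cell cycle genes to the left against both dendritic cell classes and near the median of all genes against B cells.

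Housekeeping groups and RNA of other cells were also counted. Ribosomal protein genes were lower against the dendritic cells, with 31 of 85 lower and 1 higher against cDC1 and 32 lower and 1 higher against Cd209a cells (medians -0.307 and -0.32), and against B cells 3 were higher (median 0.108). Rpl31 was higher in all 3 comparisons, at 11.7, 15.4 and 11.8 CP10K in pDC against 3.04 to 6.42 elsewhere. Of genes of endoplasmic reticulum folding and secretion, 6 of 44 were higher and 1 lower against cDC1 (median 0.263), 2 of 43 higher against Cd209a cells (median 0.287) and 4 of 44 lower against B cells (median -0.131). Xbp1, which builds secretory capacity, was higher against cDC1 and Cd209a cells by 1.04 ± 0.27 and 1.14 ± 0.26 (SE). No mitochondrially encoded gene of 13 passed in any comparison. Hepatocyte genes had 11 of 29 higher against cDC1 (median 0.544), none of 29 against Cd209a cells (median 0.39) and 1 of 29 lower against B cells (median -0.049). Their summed level was 149.0 to 291.0 CP10K in the pDC of the WT mice and 111.3 to 288.7 in those of the SIRT7 KO mice, so that hepatocyte RNA was found in the pDC of every mouse. Its part in the differences was not tested. Kupffer cell genes had 2 of 8 lower against cDC1 (median -0.587), 1 of 7 lower against Cd209a cells (median 0.667) and 1 of 7 higher against B cells (median 0.116), and Clec4f, Vsig4 and Marco were at 0 in pDC. Of T and NK cell genes, Ccl5, Cd8b1, Gzma and Nkg7 were higher and Klrk1 lower among 8 tested against cDC1 (median 1.03). None of 11 passed against Cd209a cells (median 0.305), and Cd8b1 was higher among 12 against B cells (median 0.06). Few of the 186 pDC carried the genes that were higher, with Ccl5 in 31, Cd8b1 in 17, Gzma in 6 and Nkg7 in 18. The 5 highest cells held 52.8%, 51.9%, 98.3% and 60% of their UMIs, so that their mouse means describe a few cells.

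The remaining lists held few calls. Among genes of apoptosis and survival, Bcl2a1d, Birc5 and Mcl1, which all act against cell death, were lower against both dendritic cell classes, with 4 of 13 lower against cDC1, 3 of 12 lower against Cd209a cells and none of 12 passing against B cells (medians -0.558, -0.553 and 0.098). Of immediate-early genes, Dusp1, Fos and Junb were lower among 17 tested against cDC1 (median -0.123), Junb and Klf4 among 18 against Cd209a cells (median -0.553), and Btg2 was higher among 15 against B cells (median 0.084). Of genes of transitional dendritic cells, which lie between pDC and conventional dendritic cells, Ltb was higher and Cd81 and Id2 were lower among 10 tested against cDC1, while Klf4, Ms4a4c, Tmem176a and Tmem176b were lower among 10 against Cd209a cells. Against B cells Cd2, Cd81 and Ltb were lower among 9, so that Ltb went the other way there (medians -0.148, -0.864 and -0.408).

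The comparison of SIRT7 KO with WT asks whether loss of SIRT7 changes gene expression in hepatic pDC. With at least 10 pDC asked of a mouse, only WT mouse 3 was left in the WT group, so that comparison had no test; 1583 of 6267 genes (25.3%) differed by at least 2-fold with SIRT7 KO mice 1 and 2 on the same side of WT mouse 3. With at least 5 pDC per mouse, a limit chosen after the counts were seen, WT mice 1 to 3 and SIRT7 KO mice 1 and 2 entered (7, 5, 16, 100 and 55 cells). In this fit 5 of 6049 genes passed (0.0827%), 3 higher (0.0496%) and 2 lower (0.0331%), and 163 (2.69%) had an unadjusted p under 0.05. The calls rested on single mice and settings. No gene passed without a trend or robust term, without WT mouse 1, without WT mouse 2, with no filter or with a filter of 0.5 CP10K. Without WT mouse 3, SIRT7 KO mouse 1 and SIRT7 KO mouse 2, 3, 5 and 2 genes passed, of which 1, 1 and 0 were among the 5. The values are therefore given mouse by mouse, and adjusted p-values are those of this fit.

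Ccl5, a chemokine of T and NK cells, was at 0, 0 and 1.38 CP10K in the pDC of WT mice 1 to 3 and at 4.48, 11.2 and 2.14 in SIRT7 KO mice 1 to 3. Every SIRT7 KO value lay above every WT value, and the fit gave 4.20 ± 0.62 (SE, adjusted p = 8.23e-08, and 0.00313 to 1 over the fits that left out 1 mouse). Ccl5 was found in 31 of 186 pDC with 52.8% of its UMIs in 5 cells, and in all other cells it was at 4.61, 5.49 and 5.80 CP10K in WT and 9.32, 18.3 and 2.97 in SIRT7 KO. Ifitm3, an interferon-stimulated inhibitor of virus entry, was at 0.686, 2.37 and 3.24 CP10K in WT and 5.67, 11.3 and 6.06 in SIRT7 KO, with no overlap (2.05 ± 0.44, SE; adjusted p = 0.00673). In all other cells Ifitm3 was at 9.21, 8.32 and 10.4 against 13.5, 18.9 and 16.1 CP10K, likewise with no overlap. Gm42418, which overlaps ribosomal RNA and can take up its reads, was at 0.921, 1.85 and 3.42 against 9.21, 8.84 and 4.75 CP10K in pDC (2.19 ± 0.43, SE; adjusted p = 0.00133) and moved the same way in all other cells.

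Cd300c, an activating receptor gene of myeloid cells, was the pDC surface gene that passed. It was at 3.43, 1.43 and 1.98 CP10K in the pDC of WT mice 1 to 3 and at 0, 0.424 and 0 in those of SIRT7 KO mice 1 to 3, from 12, 3 and 7 UMIs against 0, 4 and 0. Over the mice of the fit, without SIRT7 KO mouse 3, the groups did not overlap, as was the case for 931 of 6049 genes (15.4%). The count of 0 in SIRT7 KO mouse 3 allows up to 1.45 CP10K, above the 1.43 of WT mouse 2, and cannot show a lack of overlap. For Cd300c the fit gave -2.73 ± 0.65 (SE, adjusted p = 0.0342, and 0.0602 with all 6 mice). Across the fits that left out 1 mouse its adjusted p ran from 0.125 to 1. In cDC1 of the same mice Cd300c was at 0.344, 0.149 and 0.317 against 0.0343, 0.0291 and 0.0373 CP10K, from 1 to 10 UMIs, and B cells had none. Cd300c lies at chr11:114956116-114969157 (GRCm38, Gencode vM21), 5.65 Mb from Sirt7 at chr11:120618372-120625240. Of 77 tested genes within 10 Mb, Sirt7 itself included, Cd300c was the 1 that passed and 4 had an unadjusted p under 0.05. Of 27 within 1 Mb, again with Sirt7, none passed and 2 had an unadjusted p under 0.05 (Pcyt2 and Mcrip1), beside 2.69% over all genes. Sequence carried along with the knockout allele and an effect of the knockout cannot be told apart in this design. Pcyt2, the gene beside Sirt7 (chr11:120610087-120617936), was at 1.56, 0.927 and 1.65 CP10K in the WT pDC and 0.144, 0 and 0 in the SIRT7 KO pDC. The mice of the fit did not overlap, while the 0 of SIRT7 KO mouse 3 again allows up to 1.45 CP10K. Pcyt2 did not pass (-2.56 ± 0.77, SE, adjusted p = 0.401). Over all other cells Pcyt2 was at 5.07, 3.69 and 1.58 against 0.0846, 0.0629 and 0.0960 CP10K.

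Sult2a1, a sulfotransferase of hepatocytes, was at 5.05, 6.66 and 2.55 CP10K in WT pDC and 1.01, 0.799 and 1.07 in SIRT7 KO pDC (-2.07 ± 0.48, SE; adjusted p = 0.0298). In all other cells it was at 19.4, 24.5 and 4.89 against 2.52, 1.93 and 2.10 CP10K, and 24 of 29 listed hepatocyte genes had a negative fold change in the pDC (median -0.58, beside 0.099 over all genes), with 0 past the threshold. T and NK cell genes summed to 0.495 to 4.19 CP10K in WT and 4.77 to 19.0 in SIRT7 KO pDC (list median 1.75, 7 tested, 1 passed, which was Ccl5), and Cd3e was at 0. Kupffer cell genes summed to 0 to 15.6 against 1.18 to 17.5 CP10K (median 1.93, 6 tested, 0 passed), with Clec4f, Vsig4 and Marco at 0. Neutrophil and basophil genes had a median of 2.07, with a sum of 85.0 CP10K in SIRT7 KO mouse 1 and at most 1.62 elsewhere, and endothelial genes a median of 1.22. The part of this RNA in the 5 calls was not tested.

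**Figure D5:**
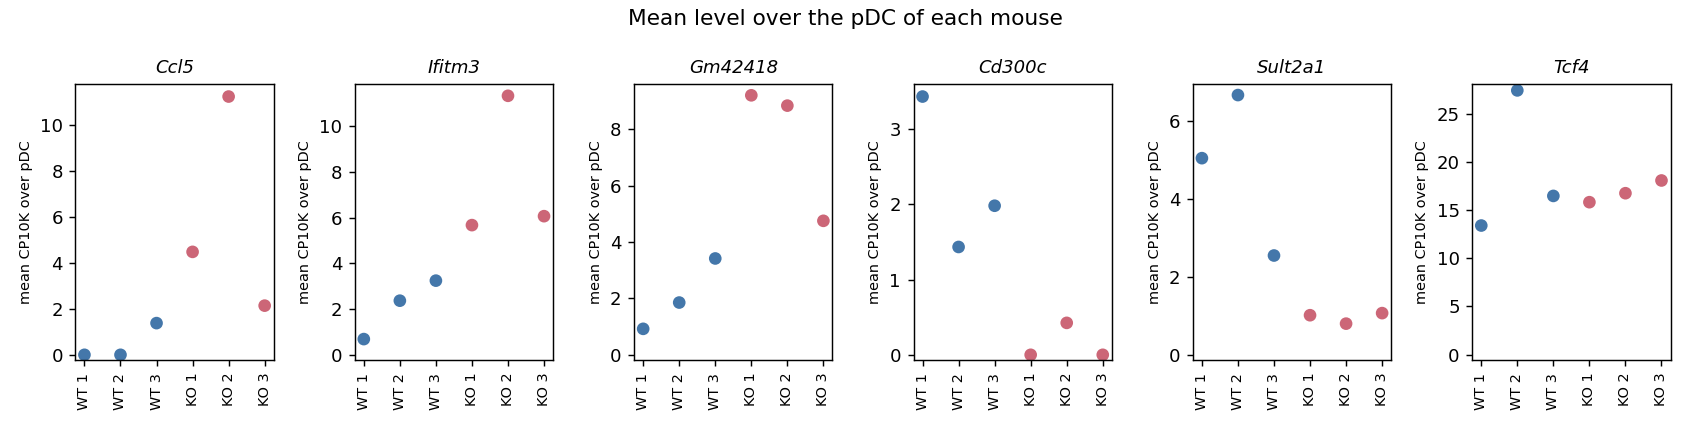
Mean CP10K over the pDC of each mouse (WT 1 to 3 blue, SIRT7 KO 1 to 3 red) for the 5 genes that passed in the fit over mice with at least 5 pDC and for Tcf4, which did not; each point is 1 mouse, from 3 to 100 cells, and each panel has its own linear scale. The plotted values of the 5 genes do not overlap between the genotypes and those of Tcf4 do. The Cd300c value of 0 in SIRT7 KO mouse 3 rests on 3 cells.

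The main regulators and markers of pDC did not pass between genotypes. Tcf4 was at -0.16 ± 0.26, Irf8 at -0.32 ± 0.24, Bst2 at 0.09 ± 0.22, Ly6d at -0.06 ± 0.25 and Runx2 at -0.02 ± 0.35 (log2, SE), each with an adjusted p of 0.9995. None of 14 pDC regulators passed (median -0.04), and 1 of 31 surface and secreted genes did (Cd300c; median -0.09). None of 14 nucleic acid sensing genes (median -0.07), 7 type I interferon genes (median -0.25), 11 MHC class II genes (median 0.10) or 45 genes of endoplasmic reticulum folding and secretion (median 0.08) passed. Of 27 interferon-stimulated genes, Ifitm3 passed and 19 had a positive fold change (median 0.57). None of 85 ribosomal protein genes passed (median 0.15), nor any of 13 genes of the integrated stress response (median 0.51). A genotype effect was not shown to be particular to pDC: the within-mouse difference between pDC and conventional dendritic cells gave 0 of 6152 genes past the threshold by limma and 175 (2.84%) with an unadjusted p under 0.05, and Cd300c was at -1.82 ± 0.63 (SE; adjusted p = 0.999).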

How the data were processed

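Liver cells of 3 WT and 3 SIRT7 KO mice were profiled, with 1 library per mouse. The deposited values are natural log (ln) values of counts per 10000 UMIs plus 1, made by the authors after Cell Ranger 6.0.0 with mm10 (submitters' processing notes). UMIs were recovered from them (100.0% whole within 0.02). Every cell held at least 500 genes, and mitochondrial RNA reached at most 5.01%. No doublet caller was run here.

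Mean CP10K over the cells of a class in a mouse was computed. limma 3.58.1 (R 4.3.3; trend and robust eBayes) was fitted to log2(mean + 0.2) for genes that averaged 0.2 CP10K or more over the mice fitted, with Benjamini-Hochberg adjustment and a threshold of 0.05. The study tested cells with MAST, while the mouse is the replicate here. The design asked for 10 pDC per mouse, which left 1 WT mouse. The limit of 5 was chosen after the data were seen. Shares were tested by exact permutation (scipy 1.17.1). Binomial intervals and floors (3 counts) cover counting error only. Permutation p-values measure the spread between these mice. The limma p-values and SE rest largely on a spread pooled over genes of similar level, and less on a gene's own spread between mice.

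Members, markers and 27 gene lists were chosen with earlier results of these data known. Genes named are those of the rule, the markers and the lists, Sirt7 and Pcyt2, and up to 10 genes with the largest fold change per direction and comparison (mean of at least 1 CP10K and the same direction in every mouse between classes; at least 0.5 CP10K without overlap between genotypes). Crip1 was named after its values were seen. Some genes of the lists and class rules are not reported here. Alternatives covered pseudocounts, filters, weights, depth, membership, a replicate block and each mouse left out. On simulated data, 158 of 200 genes changed 8-fold were recovered among 5966 genes in the genotype fit. In the class fit 200 of 200 were recovered among 5347 genes, with 14 false calls. Each simulated profile was drawn from a pooled profile, and the changed genes came from a limited range of levels. The spread between cells and RNA of other cells were not simulated, so these counts do not give the recovery in the real cells. Promoters are from RefSeq, gene positions from Gencode vM21.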

Additional observations from a re-analysis of the deposited data

Results flagged for a closer look

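The candidates that were left out for Clec4f or Vsig4 held pDC RNA outside the comparisons. Their median summed level of 6 pDC genes that the rule did not use was 43.6 CP10K in 80 cells, above the 8.40 CP10K of 2874 cells with Clec4f and Vsig4 but no Siglech. The cause was not tested.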

How the results depend on the processing

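The difference in pDC share of all cells kept its sign in every alternative run, and was 0.309 to 1.30 percentage points with each mouse left out. Among Ptprc cells that range was 0.0116 to 0.482, and the difference was -0.0987 with at least 2 Siglech UMIs. The difference in median UMIs was -1845.4 to 1063.3 with each mouse left out, positive at 194.7 without WT mouse 1, 119.7 without WT mouse 2, 1063.3 without SIRT7 KO mouse 1 and 555.6 without SIRT7 KO mouse 2. With 10 pDC per mouse, the count of 2-fold differences of 1583 was 81 with a pseudocount of 1, 633 with a filter of 0.5 CP10K and 423 with 5 pDC per mouse.

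The 5 genotype calls became 0 with a filter of 0.5 CP10K, 0 with no filter, 0 with no trend or robust term, 3 on summed UMIs, 1 with at least 2 Siglech UMIs, 2 without members over 2 times the median UMIs, 3 with all 6 mice, and 0 to 5 with each mouse left out. The counts against cDC1, Cd209a cells and B cells were 326, 247 and 190 in thinned cells and 416, 104 and 262 with no trend or robust term. With each mouse left out they were 365 to 697, 246 to 315 and 207 to 387. The cause of these changes was not tested. In the genotype and class fits other than that against Cd209a cells, the median prior degrees of freedom of the spread was infinite.

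The main tests did not pair the mice by replicate number. Same-numbered mice had correlations of -0.0317, -0.0271 and -0.0513 of their deviations over 1568 genes. These means rest on as few as 7, 5 and 3 pDC in WT mice 1 and 2 and SIRT7 KO mouse 3, so they cannot exclude a pairing. With the replicate block, 17 genes passed between genotypes and 3 in the difference from conventional dendritic cells, and both shares had an exact p of 0.5. Over the alternatives, the named genes that had passed between genotypes lost their call in 59 values and kept it in 31. Against B cells 5 values lost the call and 215 kept it. Against cDC1 and against Cd209a cells, 1 value each lost it and 219 each kept it. The limit of 20 pDC per mouse, voom and the block with 10 pDC per mouse, and that comparison without WT mouse 3 gave no value.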
